A study of Drosophila melanogaster with 12 samples.

Results

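The neurotransmitter receptor genes of Drosophila melanogaster were followed in adult heads that expressed mouse TET2. The set held 40 genes, chosen by name as receptors for acetylcholine, GABA, glutamate, histamine, dopamine, serotonin and octopamine, with a summed count of at least 10 read pairs required. They were 40 of the 17730 genes in the counts table and 40 of the 12433 genes that had enough reads to be tested. All 40 were matched by symbol and all 40 were tested, with summed counts from 2027 read pairs for nAChRbeta3 to 117090 for nAChRalpha4.

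Total RNA, depleted of ribosomal RNA, was sequenced from pooled heads of 1-day-old flies of both sexes, with 12 stranded paired-end libraries and 3 biological replicates in each of 4 groups. Controls carried the dTet-Gal4 driver crossed to w1118 (dTet-Gal4>w1118). In the mTET2 groups flies carried the same driver with a UAS transgene for mouse TET2, as wild type (mTET2-wt), with the R43G substitution near the N-terminus (mTET2-R43G), or with the R1261C substitution in the catalytic domain (mTET2-R1261C). Gal4, a yeast activator, is made where dTet is active and switches on the UAS transgene there, so heads mix cells with and without mouse TET2. All transgenes sat at 1 landing site on chromosome 2, and their level is not analysed here. The comparisons ask which receptor genes differ from control, and between the mutants and mTET2-wt.

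Acetylcholine is the main fast excitatory transmitter of the insect brain and opens nicotinic receptors, which are rings of alpha and beta subunits that pass cations. GABA and glutamate inhibit fly neurons through chloride channels, glutamate also excites through cation channels, and histamine is released by photoreceptors onto chloride channels of the optic lobe. Dopamine, serotonin, octopamine and the muscarinic side of acetylcholine act through G protein-coupled receptors that shift cyclic AMP or calcium.

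The set held 10 nicotinic subunits (nAChRalpha1 to nAChRalpha7, nAChRbeta1 to nAChRbeta3) and 2 muscarinic receptors (mAChR-A, mAChR-B). For GABA it held 3 channel subunits (Rdl, Grd, Lcch3) and 3 metabotropic receptors (GABA-B-R1, GABA-B-R2, GABA-B-R3). For glutamate it held 5 cation channel subunits (Nmdar1, Nmdar2, GluRIA, GluRIB, clumsy), 1 chloride channel (GluClalpha) and 1 metabotropic receptor (mGluR). The histamine channels were 2 (HisCl1, ort). The amine receptors were 4 for dopamine (Dop1R1, Dop1R2, Dop2R, DopEcR), 5 for serotonin (5-HT1A, 5-HT1B, 5-HT2A, 5-HT2B, 5-HT7) and 4 for octopamine (Oamb, Octbeta1R, Octbeta2R, Octbeta3R). By chromosome, 18 lay on 3R, 7 on 3L, 6 on 2L, 5 on X, 3 on 2R and 1 on chromosome 4.

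These are long genes. Their median span was 22.1 kb, against 2.36 kb over all genes tested, and 15 of the 40 spanned at least 30 kb, as did 5.34% of all genes tested. Reads were counted over the whole gene body, introns included, so unspliced RNA counts towards each value. On the same strand 12 members overlapped another gene, and read pairs that fell on both were left out. The overlapped share reached 14.3% of the span of GABA-B-R1. Antisense neighbours touched 17 members, and counting used the strand.

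Between 15894383 and 19434046 read pairs were counted per library, and ribosomal RNA genes held 2.19% to 7.31% of them. Markers of neurons, 11 genes tested, summed to 6942 to 9674 CPM per library (CPM, read pairs scaled to the effective library size), and markers of photoreceptors, 12 genes, to 29050 to 40490 CPM, and none of these tested genes was at 0 in any library. Syx1A, a further neuron marker, was listed at 0 read pairs, as were VAChT, the vesicular carrier of acetylcholine, and the glial gene alrm. Each lies with 100% of its span inside another gene on its strand, where this counting keeps no read pair. In summed receptor level mTET2-R1261C replicate 2 was the lowest of all 12 libraries, at 5198 CPM, and mTET2-R43G replicate 2 the highest, at 7279 CPM. Replicate 2 of mTET2-R1261C was the lowest library for 22 of the 40 members, and replicate 2 of mTET2-R43G the highest for 22. mTET2-wt replicate 3 held 2525 CPM of midgut digestive enzyme transcripts, against 225 to 516 CPM in the other libraries. Control replicate 3 held 74330 CPM of fat body markers, against 23630 to 57060 CPM in the other libraries. Yp1, a yolk protein gene of that list, measured 14780 CPM there, against 3541 to 8997 CPM elsewhere. The male dosage compensation RNA lncRNA:roX1 measured 577 CPM in control replicate 3, against 1089 and 1459 CPM in the other controls. It measured 347 to 1184 CPM in the mTET2 libraries. The part of such tissue differences, or of the mix of sexes in a pool, in the receptor values was not tested.

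Levels were first ordered within the set, as CPM per kb of gene span averaged over the 12 libraries. GABA-B-R2, a subunit of the obligate heteromer that senses GABA through G proteins, stood highest at 32.1 CPM per kb (range 28.7 to 37.2). nAChRbeta1, the most abundant of the nicotinic subunits on this scale, followed at 21.4 CPM per kb (range 16.6 to 28.1), and Lcch3, a GABA-type channel subunit, at 16.1 CPM per kb (range 15.1 to 17.7). The lowest were 5-HT2B, a serotonin receptor coupled to calcium release, at 1.16 CPM per kb, Grd, another GABA-type subunit, at 1.48 CPM per kb, and 5-HT7, a serotonin receptor that raises cyclic AMP, at 1.54 CPM per kb. Of the 39 neighbouring pairs in this order, 38 had ranges that overlapped, so only the step from GABA-B-R2 to nAChRbeta1 exceeded the spread between libraries.

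The order depended on the length used. Per kb of merged exons, nAChRalpha4 came first at 92.0 CPM per exon kb, then GluClalpha, the inhibitory glutamate channel, at 63.0 and Dop2R, the D2-type dopamine receptor, at 58.3 CPM per exon kb. Only 5 of the 10 highest members were shared between both orders. nAChRalpha4 ranked 16 of 40 per kb of span, and GABA-B-R2 ranked 8 of 40 per kb of exons.

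**Figure D1:**
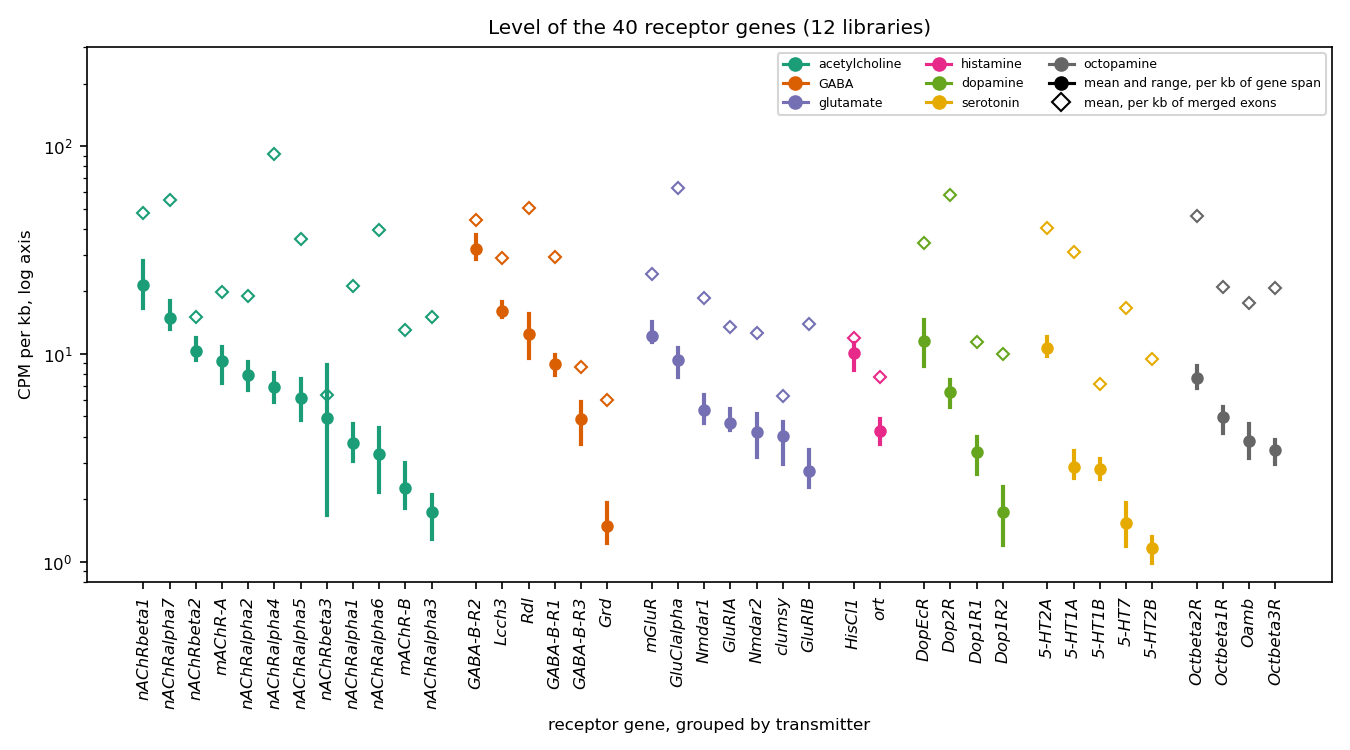
Level of each receptor gene on a log axis, grouped by transmitter; dots are means over 12 libraries in CPM per kb of gene span, bars the lowest and highest library, and open diamonds the mean per kb of merged exons. GABA-B-R2 leads on gene span at 32.1 CPM per kb and nAChRalpha4 on exon length at 92.0.

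Within each transmitter, the most abundant member per kb of span was nAChRbeta1 for acetylcholine, GABA-B-R2 for GABA, mGluR for glutamate, HisCl1 for histamine, DopEcR for dopamine, 5-HT2A for serotonin and Octbeta2R for octopamine. nAChRbeta1 measured 138.4, 126.7 and 131.9 CPM in the control libraries, 133.5, 140.9 and 124.1 with mTET2-wt, 145.3, 172.9 and 186.9 with mTET2-R43G and 146.9, 110.6 and 145.3 with mTET2-R1261C. Its mTET2-R43G libraries all lay above its control libraries, and mTET2-R1261C spanned the control range on both sides. GABA-B-R2 measured 171.8, 178.3 and 159.7 CPM in control, 173.6, 180.9 and 174.3 with mTET2-wt, 179.1, 204.7 and 180.2 with mTET2-R43G and 158.0, 169.5 and 191.4 with mTET2-R1261C. Only mTET2-R43G stood clear of control for this gene, by less than 1 CPM at the nearest libraries.

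mGluR, a receptor that tunes transmitter release, measured 154.1, 164.7 and 148.9 CPM in control, 151.5, 150.9 and 143.8 with mTET2-wt, 154.0, 179.2 and 157.4 with mTET2-R43G and 149.0, 144.7 and 148.1 with mTET2-R1261C. HisCl1 measured 22.7, 20.3 and 18.5 CPM in control, 23.7, 20.7 and 22.8 with mTET2-wt, 25.0, 22.4 and 21.8 with mTET2-R43G and 22.0, 22.9 and 24.6 with mTET2-R1261C. All groups overlapped control for both. DopEcR, which answers to dopamine and to the steroid ecdysone, measured 156.5, 151.2 and 119.6 CPM in control, 138.0, 140.7 and 131.1 with mTET2-wt, 157.9, 169.3 and 184.8 with mTET2-R43G and 168.0, 111.6 and 137.5 with mTET2-R1261C. Octbeta2R, a beta-adrenergic-like octopamine receptor, measured 346.5, 325.0 and 308.1 CPM in control, 349.6, 342.7 and 340.3 with mTET2-wt, 367.8, 395.6 and 362.6 with mTET2-R43G and 340.6, 309.4 and 374.9 with mTET2-R1261C. For both of these amine receptors the mTET2-R43G libraries alone lay wholly above control.

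The spread of the members between libraries was read next. Their biological coefficient of variation, the spread between replicates beyond counting error, had a median of 10.1%, against 13.5% over all genes tested. Each member held at least 2027 read pairs, while genes were tested from 10 read pairs up. No genes matched on level were compared. nAChRbeta3, the shortest nicotinic gene, had the highest coefficient at 37.3%, and ranged from 3.28 to 17.5 CPM. It was the lowest member in CPM. Among the nicotinic genes alone it was also the lowest per kb of exons, though not per kb of span. nAChRalpha4 was the steadiest at 7.54%.

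nAChRalpha3 was the only receptor gene to pass the test against control. This nicotinic alpha subunit gene (FBgn0015519) lies on chromosome X from 8276200 to 8367169 on the minus strand in the annotation of dmel_r6.28. It measured 137.0, 124.4 and 116.3 CPM in control, 172.5, 163.9 and 159.2 with mTET2-wt, 176.0, 189.8 and 184.8 with mTET2-R43G and 164.3, 134.1 and 168.6 with mTET2-R1261C. Every mTET2-wt and mTET2-R43G library exceeded every control library, and mTET2-R1261C replicate 2 was the only mTET2 library below the highest control.

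Group means of nAChRalpha3 were 125.9 ± 10.4 CPM in control, 165.2 ± 6.71 with mTET2-wt, 183.5 ± 7.0 with mTET2-R43G and 155.7 ± 18.8 with mTET2-R1261C (SD, n = 3). It rose 1.46-fold in mTET2-R43G (log2 fold change 0.54, SE 0.09, adjusted p = 0.00837, quasi-likelihood test of edgeR, Benjamini-Hochberg over all genes tested) and 1.31-fold in mTET2-wt (0.39, SE 0.09, adjusted p = 0.0469 by the same edgeR test). In mTET2-R1261C it was 1.24-fold of control and did not pass (0.31, SE 0.09, adjusted p = 0.155, edgeR). Over the mean of the 3 mTET2 groups it rose by 0.41 (SE 0.08, adjusted p = 0.0102, edgeR).

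The call in mTET2-R43G held in every alternative run, with adjusted p-values up to 0.0386. The call in mTET2-wt was lost when any 1 of its 6 libraries was left out (adjusted p 0.0522 to 0.155, edgeR) and the call over the mean was lost without control replicate 2 (0.0639) or control replicate 3 (0.0601). In mTET2-R1261C the gene passed when replicate 2 was left out (log2 fold change 0.40, adjusted p = 0.0364, edgeR). Where a smooth trend on gene length was fitted in each library and removed, nAChRalpha3 was higher by 0.28, 0.25 and 0.27 in the mTET2-wt, mTET2-R43G and mTET2-R1261C groups, and it passed in each (adjusted p 0.0115, 0.0195 and 0.0178, edgeR).

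The share of nAChRalpha3 among all receptor reads, a ratio chosen after its values were seen and not tested, took the level of the library out of the comparison. The gene made up 2.19%, 2.11% and 2.12% of the summed CPM of the 40 members in control. In mTET2-wt it made up 2.78%, 2.67% and 2.67%, with mTET2-R43G 2.70%, 2.61% and 2.66%, and with mTET2-R1261C 2.70%, 2.58% and 2.64%. All 9 mTET2 libraries thus lay above all 3 control libraries, mTET2-R1261C replicate 2 included, and the 3 mTET2 groups overlapped one another.

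Set against the other members singly, nAChRalpha3 was higher in all 9 mTET2 libraries than in any control for 32 of 39 ratios. The exceptions were its ratios to nAChRalpha6, nAChRbeta1, nAChRbeta3, GABA-B-R2, GABA-B-R3, clumsy and HisCl1. All 39 ratios share a numerator chosen after its values were seen, and the same control libraries. They are therefore not separate observations, and they were not tested. Its ratio to nAChRalpha6, the subunit on which the insecticide spinosad acts and the only member longer than nAChRalpha3, was 0.439, 0.479 and 0.450 in control and 0.489, 0.493 and 0.453 in mTET2-R43G, so these groups overlapped. In mTET2-wt that ratio was 0.559, 0.522 and 0.577, and in mTET2-R1261C 0.509, 0.669 and 0.600.

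Genes near nAChRalpha3 were counted too. Within 100 kb on either side 26 other genes were tested, and edgeR called 0 of them in each comparison with control, with 3, 2 and 2 at an unadjusted p under 0.05 in the mTET2-wt, mTET2-R43G and mTET2-R1261C groups, and DESeq2 called 1, 0 and 0. The shares called over all genes, 2.24%, 4.33% and 1.49%, would give about 1 such gene or fewer among 26. The median gene of chromosome X lay between -0.03 and 0.03 (log2) of the control mean in all 12 libraries. The male dosage compensation RNA lncRNA:roX1 ranged from 577 to 1459 CPM in control, 347 to 998 with mTET2-wt, 492 to 1069 with mTET2-R43G and 804 to 1184 with mTET2-R1261C, and these groups overlapped.

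**Figure D2:**
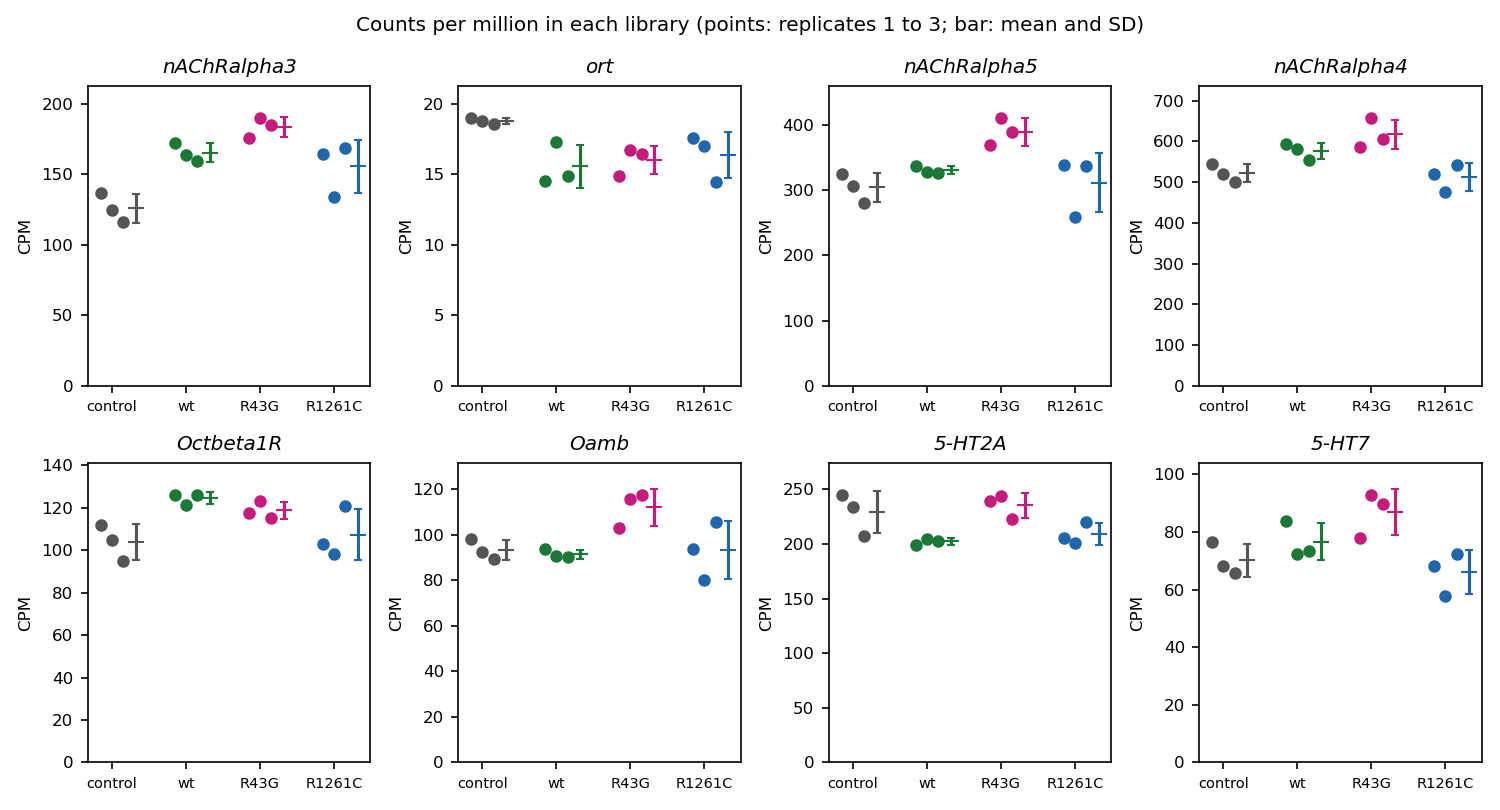
CPM in each library for 8 receptor genes, on linear axes from 0; points are replicates 1 to 3 of each group and the bar beside them the mean and SD. nAChRalpha3 sits at 116.3 to 137.0 CPM in control and 134.1 to 189.8 CPM in the 9 mTET2 libraries, and ort at 18.56 to 18.98 against 14.48 to 17.58 CPM.

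In mTET2-wt heads the receptor set otherwise stayed near control. Fold changes ran from -0.54 (nAChRbeta3) to 0.39 on the log2 scale, 24 of 40 were above 0, and their median was 0.03, against -0.0033 over all genes. By edgeR 1 of 40 members passed an adjusted p of 0.05, where 2.24% of all genes did, and 0 of 40 were DEGs (called genes with a log2 fold change of 1 or more in size), where 1.2% of all genes were. At an unadjusted p under 0.05 there were 5 members, or 12.5%, against 14.7% of all genes. There were 2 without mTET2-wt replicate 1, against 12.6% of all genes, and 3 without control replicate 2 or mTET2-wt replicate 3, against 12.0% and 11.2%. The number above 0 ran from 19 without control replicate 3, where the median was -0.0077, to 30 without control replicate 1. The libraries did not overlap for 10 members, or 25.0%, against 23.3% of all genes. With all 6 libraries both shares were near their background.

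The 5 members at an unadjusted p under 0.05 in mTET2-wt were nAChRalpha3, Octbeta1R and clumsy on the higher side and ort and 5-HT2A on the lower. Octbeta1R, a beta-adrenergic-like octopamine receptor, measured 112.0, 104.6 and 94.9 CPM in control, 126.2, 121.3 and 125.8 with mTET2-wt, 117.6, 123.4 and 115.4 with mTET2-R43G and 102.9, 98.2 and 120.8 with mTET2-R1261C. Both mTET2-wt and mTET2-R43G lay wholly above control, and mTET2-R1261C overlapped it. Its log2 difference from control was 0.26 in mTET2-wt (SE 0.08, adjusted p = 0.156, edgeR) and did not pass. clumsy, a kainate-type glutamate channel subunit, differed by 0.33 (SE 0.12, adjusted p = 0.222, edgeR).

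5-HT2A, a serotonin receptor coupled to calcium release, measured 245.2, 233.9 and 207.6 CPM in control, 199.4, 205.0 and 202.4 with mTET2-wt, 239.0, 244.3 and 222.5 with mTET2-R43G and 205.9, 201.1 and 220.0 with mTET2-R1261C. The mTET2-wt libraries were below every control and every mTET2-R43G library. Its difference from control in mTET2-wt was -0.18 (SE 0.07, adjusted p = 0.246, edgeR).

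The histamine channel ort was lower in every mTET2 library than in any control. It is the chloride channel with which lamina neurons receive photoreceptor input. It measured 18.98, 18.75 and 18.56 CPM in control, 14.5, 17.3 and 14.9 with mTET2-wt, 14.9, 16.8 and 16.5 with mTET2-R43G and 17.58, 16.97 and 14.48 with mTET2-R1261C. The control libraries were tight (18.8 ± 0.212 CPM, SD, n = 3). It was the only member whose 9 mTET2 libraries did not overlap control, or 2.5% of members, against 5.77% of all genes.

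None of these differences of ort passed the test. Its log2 differences from control were -0.27 in mTET2-wt (SE 0.10, adjusted p = 0.208), -0.23 in mTET2-R43G (SE 0.10, adjusted p = 0.187) and -0.20 in mTET2-R1261C (SE 0.10, adjusted p = 0.454), all by edgeR. Over the mean of the mTET2 groups it was -0.23 (SE 0.08, adjusted p = 0.132, edgeR). The other histamine channel, HisCl1, lay on the other side of control, at 0.13, 0.17 and 0.18 in the mTET2-wt, mTET2-R43G and mTET2-R1261C groups, and did not pass either.

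Over the mean of the 3 mTET2 groups, the receptor set held 1 call of 40 (nAChRalpha3), where 3.96% of all genes were called, and 0 DEGs, where 1.34% of all genes were. Members at an unadjusted p under 0.05 were nAChRalpha3, Octbeta1R and ort, or 7.5%, against 18.8% of all genes. Leaving out mTET2-R1261C replicate 2 raised this count to 12, against 21.6% of all genes, and leaving out control replicate 1 raised it to 10, against 18.3%. With all 12 libraries the members' share was below that of all genes, and in both of these it was above. Above 0 were 30 of 40 fold changes, with a median of 0.09, against -0.0090 over all genes.

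In mTET2-R43G heads most receptor genes lay above control. Of 40 receptor genes 36 had a log2 fold change above 0, as did 48.0% of all genes, and the median was 0.20, against -0.015 over all genes. At an unadjusted p under 0.05 there were 19 members, 18 higher and 1 lower, or 47.5%, against 23.0% of all genes. The libraries of mTET2-R43G and control did not overlap for 22 members, 21 higher and ort lower, or 55.0%, against 26.6% of all genes. After adjustment edgeR called 1 of 40 (nAChRalpha3), where 4.33% of all genes were called, and 0 were DEGs, where 1.34% of all genes were. These comparisons share the control libraries with those of the other mTET2 groups.

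mTET2-R43G replicate 2 and control replicate 3 moved this count. Without mTET2-R43G replicate 2 the number at an unadjusted p under 0.05 was 10, against 17.5% of all genes, and without control replicate 3 it was also 10, against 16.5%. Leaving out another library gave between 14 (control replicate 2, against 19.3%) and 21 (mTET2-R43G replicate 1, against 23.5%).

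Of the 10 nicotinic subunits, 9 were above control in mTET2-R43G, as were 48.0% of all genes. An unadjusted p under 0.05 was reached by 7 of the 10, against 23.0% of all genes. nAChRalpha5, an alpha subunit, measured 325.3, 306.1 and 280.8 CPM in control, 337.4, 327.1 and 326.4 with mTET2-wt, 368.5, 410.4 and 388.9 with mTET2-R43G and 338.7, 259.5 and 336.9 with mTET2-R1261C. mTET2-R43G lay above every other library for this gene. Its log2 difference was 0.36 (SE 0.10, adjusted p = 0.0636, edgeR) and did not pass.

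nAChRalpha4, which had the highest count in the set, measured 544.3, 518.7 and 500.5 CPM in control, 592.3, 581.1 and 554.9 with mTET2-wt, 586.9, 656.9 and 606.5 with mTET2-R43G and 520.0, 475.4 and 542.4 with mTET2-R1261C. Both mTET2-wt and mTET2-R43G cleared control, and mTET2-R1261C overlapped it. The log2 difference of nAChRalpha4 in mTET2-R43G was 0.24 (SE 0.07, adjusted p = 0.0732, edgeR). nAChRalpha6 differed by 0.47 (SE 0.14), nAChRbeta1 by 0.35 (SE 0.12), nAChRalpha1 by 0.28 (SE 0.11) and nAChRalpha7, a subunit of the giant fibre escape circuit, by 0.23 (SE 0.08). nAChRbeta3 was the only nicotinic gene below control in mTET2-R43G, at -0.85 with an SE of 0.44. nAChRalpha1, nAChRalpha2 and nAChRbeta2 are neighbours on 3R with gaps of 28.3 and 18.1 kb, and the compact nAChRalpha2 and nAChRbeta2 stood at 0.05 and 0.06 in mTET2-R43G.

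The other classes were smaller, and differences between classes were not tested. Both muscarinic receptors were higher in mTET2-R43G, mAChR-A by 0.27 (SE 0.10) and mAChR-B by 0.38 (SE 0.12), and neither passed after adjustment. Among GABA receptors Rdl, the chloride channel named for resistance to dieldrin, stood at 0.38 (SE 0.13) and GABA-B-R3 at 0.34 (SE 0.14), while Grd stood at -0.26 (SE 0.13) and Lcch3 at -0.10 (SE 0.07). Of the glutamate receptors GluRIB, an AMPA-type subunit, stood at 0.34 (SE 0.10) and GluClalpha at 0.25 (SE 0.09). The NMDA receptor subunits Nmdar1 and Nmdar2 stood at 0.20 (SE 0.10) and 0.27 (SE 0.12). The 4 dopamine receptors were all above 0, from 0.10 (Dop2R) to 0.28 (Dop1R2), and 0 of 4 had an unadjusted p under 0.05. The 5 serotonin receptors ran from 0.04 (5-HT2A) to 0.31 (5-HT7), and the 4 octopamine receptors from 0.15 (Octbeta3R) to 0.26 (Oamb). Of these, 2 of 5 serotonin and 3 of 4 octopamine receptors had an unadjusted p under 0.05, as did 23.0% of all genes.

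**Figure D3:**
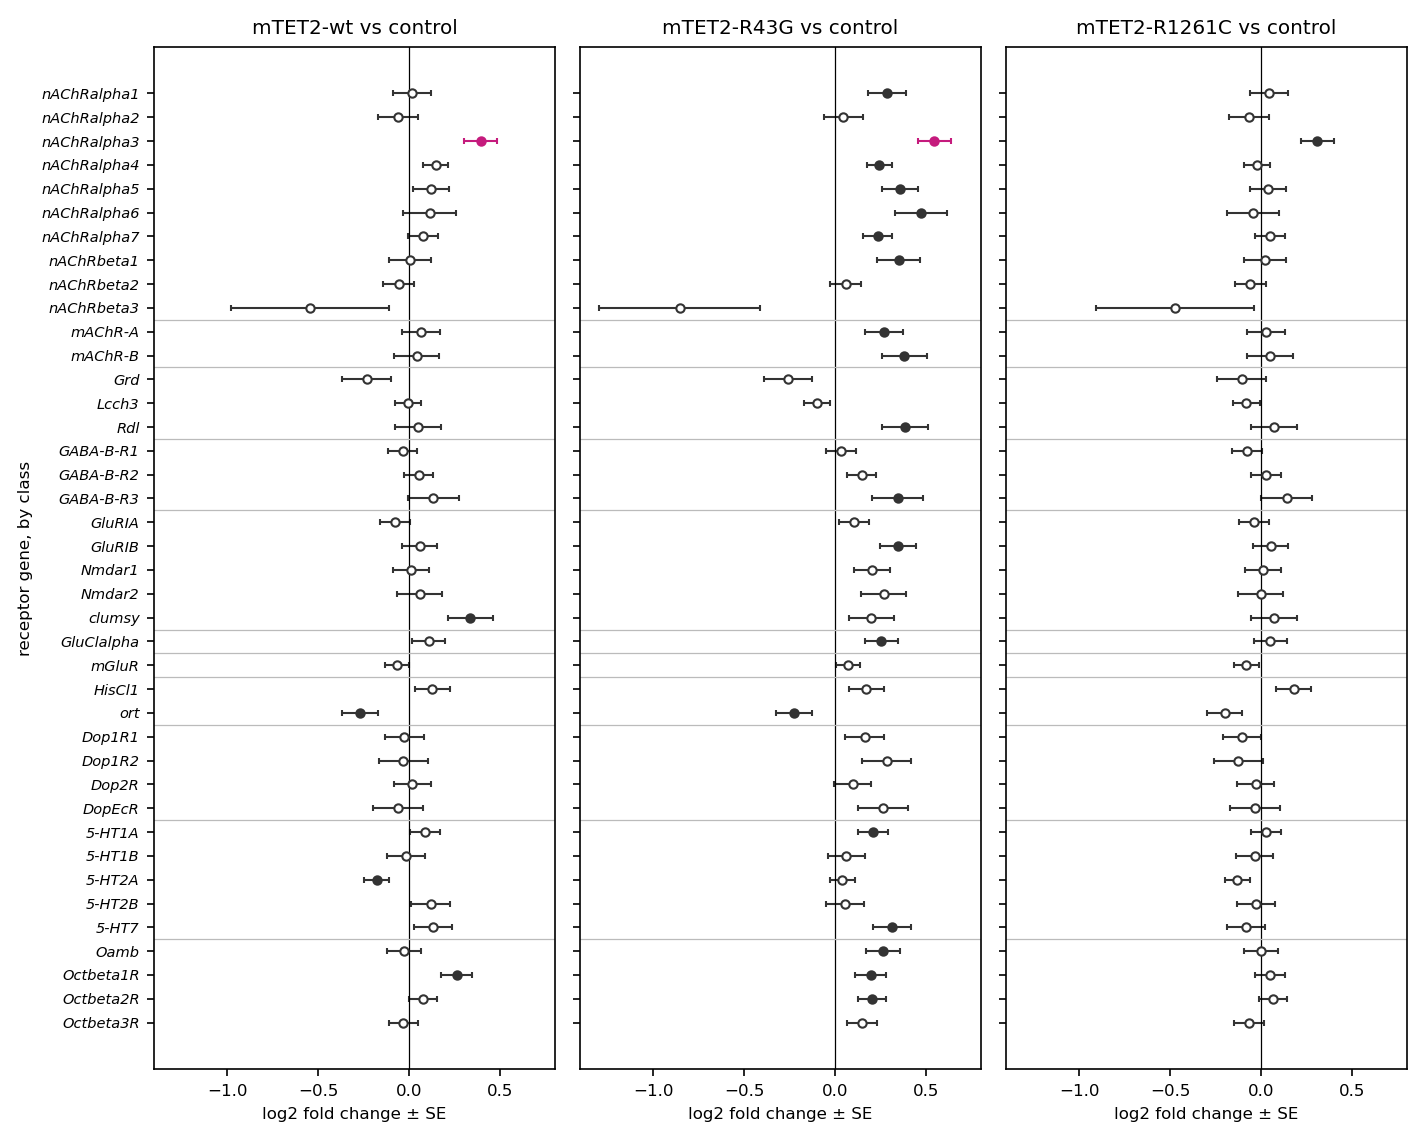
Log2 fold change against control with its SE (edgeR) for the 40 receptor genes in the mTET2-wt, mTET2-R43G and mTET2-R1261C groups; filled points had an unadjusted p under 0.05, and coloured points an adjusted p of at most 0.05. Coloured points are nAChRalpha3 alone, in mTET2-wt and mTET2-R43G, and 36 of 40 points lie right of 0 in mTET2-R43G.

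The difference in mTET2-R43G moved with gene length. Over all genes the median log2 fold change was 0.25 for the 664 genes of at least 30 kb, 0.12 for genes of 10 to 30 kb, -0.0013 for 3 to 10 kb and -0.09 under 3 kb. The 15 members of at least 30 kb had a median of 0.25, the 16 members of 10 to 30 kb a median of 0.22 and the 9 shorter members 0.06. With the length trend removed in each library the median of the 40 members fell to 0.05, and 10 members had an unadjusted p under 0.05, against 18.3% of all genes. Those 10 included nAChRbeta1 at 0.33, mAChR-B at 0.21, Rdl at 0.19 and Grd at -0.37, and nAChRalpha3 alone passed adjustment. Without that correction, DESeq2 called 9 members in mTET2-R43G, against 10.4% of all genes it tested. These were nAChRalpha3, nAChRalpha4, nAChRalpha5, nAChRalpha6, nAChRbeta1, mAChR-B, Rdl, GluRIB and 5-HT7.

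Long genes and neuron markers were read beside the receptors in each library. In mTET2-R43G the receptor median lay 0.12, 0.29 and 0.20 above the control mean (log2 of CPM + 0.1), genes of at least 30 kb lay 0.15, 0.32 and 0.27 above it, and the 11 neuron markers 0.06, 0.24 and 0.22 above it. In mTET2-R1261C the receptor medians were -0.01, -0.16 and 0.14, those of long genes 0.07, -0.12 and 0.14, and those of neuron markers 0.02, -0.26 and 0.06. In mTET2-wt long genes lay 0.10, 0.11 and 0.07 above the control mean, receptors 0.04, 0.03 and 0.01 above it, and neuron markers at -0.02, -0.0004 and -0.07. The control libraries ran from -0.082 to 0.103 for long genes and from -0.128 to 0.105 for neuron markers. In mTET2-wt both thus overlapped control. In control the receptor medians were 0.08, 0.01 and -0.10, so that every mTET2-R43G library lay above every control and mTET2-R1261C spanned the control range. Neuron markers summed to 7462 to 8907 CPM in control and 8674 to 9674 CPM in mTET2-R43G, and these ranges overlapped. The median log2 fold change of the neuron markers in mTET2-R43G was 0.17 as fitted and -0.02 with the length trend removed. In bulk heads more neurons and more RNA per neuron cannot be told apart. The part of either in the receptor difference was not tested, nor was the cause of the length trend.

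**Figure D4:**
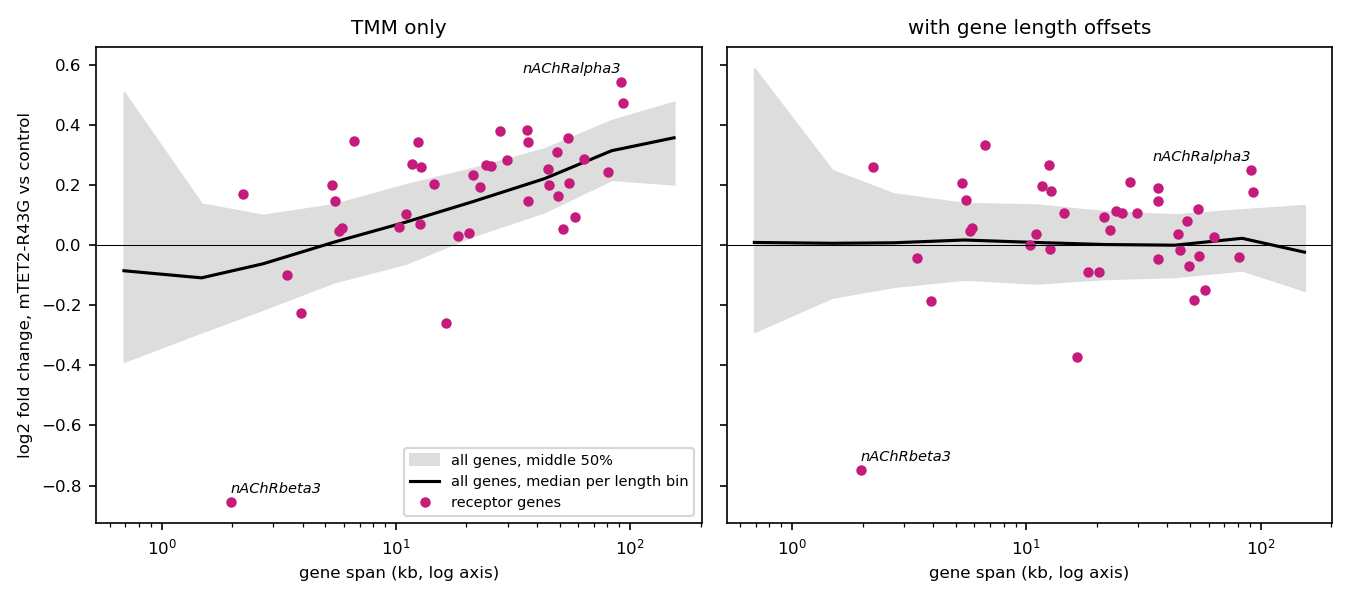
Log2 fold change of mTET2-R43G against control by gene span on a log axis, as fitted (left) and with the gene length trend of each library removed (right); dots are the 40 receptor genes, the line is the median of all genes per length bin and the band their middle 50%. Left, the line rises with length and most receptor genes follow it; right, the receptor median is 0.05.

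**Figure D5:**
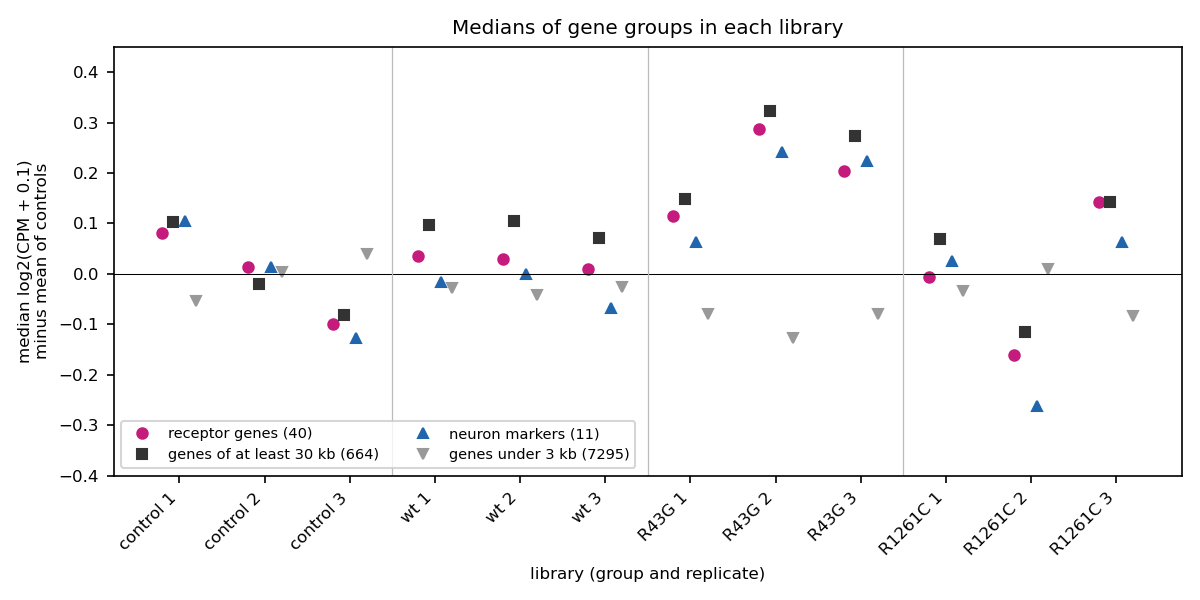
Median log2(CPM + 0.1) minus the mean of the control libraries, in each of 12 libraries, for the 40 receptor genes, 664 genes of at least 30 kb, 11 neuron markers and 7295 genes under 3 kb. The receptor medians reach 0.29 in mTET2-R43G replicate 2 and -0.16 in mTET2-R1261C replicate 2, and the medians of long genes go the same way.

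mTET2-R1261C heads showed no call in the set. By edgeR 0 of 40 members passed an adjusted p of 0.05, where 1.49% of all genes did, 0 were DEGs, where 0.748% of all genes were, and DESeq2 called 0 as well. At an unadjusted p under 0.05 there was 1 member, nAChRalpha3, or 2.5%, against 11.8% of all genes. The libraries did not overlap for 1 member, ort, or 2.5%, against 15.3% of all genes. Of 40 fold changes 18 were above 0, with a median of -0.01. Replicate 2 was the lowest of the group for 31 members, and without it the median was 0.07 and 29 members were above 0. Without mTET2-R1261C replicate 3 the median was -0.08 with 6 members above 0, and without control replicate 3 it was -0.05 with 9 above 0. The count at an unadjusted p under 0.05 was 1 or 2 of 40 whichever of the 6 libraries was left out, against 9.15% to 12.4% of all genes.

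The mutants were next compared with mTET2-wt. Between mTET2-R43G and mTET2-wt the receptor median was 0.15, with 34 of 40 above 0. By edgeR 0 of 40 passed adjustment, where 0.145% of all genes did, 0 were DEGs, where 0.0804% of all genes were, and DESeq2 called 0. At an unadjusted p under 0.05 there were 13 members, all higher in mTET2-R43G, or 32.5%, against 9.86% of all genes. With the length trend removed there were 8, against 8.72% of all genes, and without mTET2-R43G replicate 2 there were 3, against 6.29%. Without mTET2-wt replicate 3 there were 4, against 6.1%, and without mTET2-R43G replicate 3 there were 5, against 9.16%. There were 18 without mTET2-R43G replicate 1, against 12.8%, and 9 without mTET2-wt replicate 1 or 2, against 7.25% and 8.21%.

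The smallest p-values of that comparison belonged to Oamb and 5-HT2A. Oamb, the alpha-adrenergic-like octopamine receptor, measured 98.4, 92.4 and 89.5 CPM in control, 93.8, 90.7 and 90.2 with mTET2-wt, 102.9, 116.0 and 117.7 with mTET2-R43G and 93.7, 80.2 and 105.7 with mTET2-R1261C. Its mTET2-R43G libraries lay above every mTET2-wt and control library, by 0.29 on the log2 scale against mTET2-wt (SE 0.09, adjusted p = 0.413, edgeR). 5-HT2A was 0.22 higher in mTET2-R43G than in mTET2-wt (SE 0.07, adjusted p = 0.413, edgeR).

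Between mTET2-R1261C and mTET2-wt the receptor median was -0.02. By edgeR 0 of 40 passed, where 0.193% of all genes did, 0 were DEGs, where 0.145% of all genes were, and DESeq2 called 0. At an unadjusted p under 0.05 there were 2, Octbeta1R and nAChRalpha4, or 5.0%, against 6.63% of all genes. Without mTET2-R1261C replicate 3 there were 6, against 9.26% of all genes, and the median was -0.12. There was 1 without mTET2-R1261C replicate 1 or 2 or mTET2-wt replicate 2 (5.2%, 6.6% and 5.85% of all genes), and 0 without mTET2-wt replicate 1 (5.81%). The median turned to 0.04, with 30 members above 0, without mTET2-R1261C replicate 2. Octbeta1R was lower in mTET2-R1261C by 0.21 (SE 0.08, adjusted p = 0.643, edgeR) and nAChRalpha4 by 0.17 (SE 0.07, adjusted p = 0.694, edgeR), and neither passed. For both genes all mTET2-R1261C libraries lay below all mTET2-wt libraries.

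Between the mutants 35 of 40 receptor genes were lower in mTET2-R1261C than in mTET2-R43G, with a median of -0.19. By edgeR 0 of 40 passed, where 0.0965% of all genes did, and 0 were DEGs, where 0.0724% of all genes were. At an unadjusted p under 0.05 there were 21, all lower in mTET2-R1261C, or 52.5%, against 13% of all genes. With the length trend removed there were 5, against 10.2% of all genes. Without mTET2-R43G replicate 2 there were 6, against 7.73%, without mTET2-R1261C replicate 2 there were 5, against 7.09%, and without mTET2-R43G replicate 3 there were 14, against 12.0%. There were 27 without mTET2-R1261C replicate 3, against 20.6%, 22 without mTET2-R43G replicate 1, against 15.3%, and 16 without mTET2-R1261C replicate 1, against 10.3%.

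5-HT7 had 1 of the smallest p-values between the mutants and measured 76.4, 68.3 and 65.6 CPM in control, 84.0, 72.4 and 73.5 with mTET2-wt, 78.0, 93.0 and 89.7 with mTET2-R43G and 68.3, 57.65 and 72.4 with mTET2-R1261C. Its mutant groups did not overlap, at a log2 difference of -0.39 (SE 0.10, adjusted p = 0.302, edgeR). nAChRalpha4 differed by -0.27 (SE 0.07, adjusted p = 0.302, edgeR) and nAChRalpha6 by -0.52 (SE 0.14, adjusted p = 0.303, edgeR). DESeq2 called these 3 genes of the 40, 5-HT7, nAChRalpha4 and nAChRalpha6 (adjusted p 0.0408, 0.0272 and 0.0408), against 2.1% of all genes it tested. mTET2-R1261C replicate 2 was the lowest library for all 3.

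Genes that serve these receptors were counted from lists of general knowledge, which were drawn up with earlier results of these data known. Among 19 other transmitter receptors tested, 2 rose in mTET2-R43G, where 4.33% of all genes were called. Grik, a kainate-type glutamate receptor subunit, rose by 0.79 (SE 0.13, adjusted p = 0.00648, edgeR), from 11.8 ± 2.19 CPM in control to 20.5 ± 1.05 in mTET2-R43G (SD, 3 libraries each). Ekar, a further kainate-type subunit, rose by 0.37 (SE 0.09, adjusted p = 0.0438, edgeR), from 122.1 ± 14 to 157.6 ± 16.1 CPM (SD, 3 libraries each). Its means were much the same in the other mTET2 groups, 155.8 ± 2.80 CPM with mTET2-wt and 156.9 ± 2.52 with mTET2-R1261C. Both genes also passed over the mean of the mTET2 groups, where 3.96% of all genes were called. There Grik rose by 0.48 (SE 0.11, adjusted p = 0.0281, edgeR) and Ekar by 0.36 (SE 0.07, adjusted p = 0.0218, edgeR). In mTET2-wt and mTET2-R1261C 0 of the 19 passed by edgeR, where 2.24% and 1.49% of all genes did. At an unadjusted p under 0.05 there were 7 and 5, against 14.7% and 11.8% of all genes. DESeq2 called 1 and 2, against 4.64% and 3.33% of all genes it tested.

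Of 22 genes for transmitter synthesis, uptake and breakdown, 3 rose and 1 fell in mTET2-R43G, where 4.33% of all genes were called, and the median of the list was -0.06. Hdc, the enzyme that makes histamine, rose by 0.50 (SE 0.08, adjusted p = 0.00571, edgeR). t, which frees histamine and dopamine from their beta-alanine conjugates, rose by 0.33 in mTET2-R43G (SE 0.08, adjusted p = 0.0376) and by 0.44 in mTET2-R1261C (SE 0.08, adjusted p = 0.0143, edgeR), where it was the only gene of the list to pass. Ddc, which makes dopamine and serotonin, rose by 0.36 in mTET2-R43G (SE 0.08, adjusted p = 0.0307, edgeR). Gs2, the glutamine synthetase of glia, fell by 0.44 (SE 0.09, adjusted p = 0.0224, edgeR). Over the mean of the mTET2 groups CarT, a carrier for histamine recycling, fell by 0.42 (SE 0.09, adjusted p = 0.0255, edgeR). Hdc, Ddc and Gs2 passed there too (0.30, 0.28 and -0.34, adjusted p 0.025, 0.039 and 0.0242, edgeR), where 3.96% of all genes were called. Gs2 averaged 1117 CPM in control, 859.4 with mTET2-wt, 821.3 with mTET2-R43G and 972.7 with mTET2-R1261C. In mTET2-wt 0 of 22 passed by edgeR, where 2.24% of all genes did, with 6 at an unadjusted p under 0.05, against 14.7%. DESeq2 called 2 there, against 4.64% of all genes it tested.

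Between the mutants and mTET2-wt only t passed by edgeR in the 4 lists of genes that serve the receptors, higher in mTET2-R1261C than in mTET2-wt by 0.53 (SE 0.08, adjusted p = 0.0141, edgeR). It measured 241.3 ± 20.0 CPM in control, 226.1 ± 8.46 with mTET2-wt, 302.4 ± 18.4 with mTET2-R43G and 327.2 ± 19.3 with mTET2-R1261C (SD, 3 libraries each). By DESeq2, mTET2-R43G against mTET2-wt held 2 calls among synthesis, uptake and breakdown, 1 among scaffold partners and 1 among effectors, and mTET2-R1261C against mTET2-wt held 1 in the first list and 1 among effectors. Over all genes edgeR called 0.145% and 0.193% in these comparisons, and DESeq2 0.679% and 0.76% of those it tested. The edgeR call of t against mTET2-wt was lost in 6 of 14 alternatives (adjusted p up to 0.0892), without any 1 of the 3 mTET2-wt libraries or mTET2-R1261C replicate 1 or 2 among them.

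Of 14 genes for assembly, scaffold and adhesion partners of receptors, 2 rose in mTET2-R43G, where 4.33% of all genes were called. These were homer, a postsynaptic scaffold protein, by 0.28 (SE 0.06, adjusted p = 0.0287, edgeR) and Nlg1, a neuroligin that bridges the synaptic cleft, by 0.62 (SE 0.11, adjusted p = 0.00915, edgeR). Both also passed over the mean of the mTET2 groups (0.22 and 0.36, adjusted p 0.0304 and 0.0453, edgeR), where 3.96% of all genes were called. homer averaged 134.9 CPM in control, 147.0 with mTET2-wt, 163.5 with mTET2-R43G and 161.3 with mTET2-R1261C. Of 22 effectors of G protein signalling only dnc rose in mTET2-R43G, where 4.33% of all genes were called. This phosphodiesterase, which breaks down cyclic AMP, was higher by 0.45 (SE 0.10, adjusted p = 0.0269, edgeR), and by 0.09 with the length trend removed (adjusted p = 0.318).

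Most of these calls were lost in some of the 14 alternatives run for each, 6 of which leave out 1 library. In mTET2-R43G those of Grik, Hdc and Nlg1 held in all 14. Ekar was lost in 7 (adjusted p up to 0.156, edgeR), with the length trend removed among them (0.31, adjusted p = 0.0653), and without control replicate 2 or 3 or mTET2-R43G replicate 1 or 2. Ddc was lost in 6 (up to 0.116), without control replicate 1 or 3 or mTET2-R43G replicate 1 or 2 among them. t was lost in 7 (up to 0.12), without any 1 of the controls or mTET2-R43G replicate 1 or 2 among them. Gs2 was lost in 6 (up to 0.0924), without control replicate 2 or 3 or mTET2-R43G replicate 1 or 2 among them. homer was lost in 7 (up to 0.106), without any 1 of the controls or mTET2-R43G replicate 2 or 3 among them. dnc was lost in 7 (up to 0.318), without control replicate 2 or 3 or mTET2-R43G replicate 2 or 3 among them. In mTET2-R1261C t was lost in 4 (up to 0.0947), without control replicate 1 or mTET2-R1261C replicate 1 or 2 among them. Over the mean of the mTET2 groups 19 alternatives were run for each call. CarT was lost without control replicate 1 or 2 (up to 0.158). Ekar was lost in 2, Hdc and Gs2 in 4, Grik in 5, homer in 6, Ddc in 9 and Nlg1 in 11 (adjusted p up to 0.168, edgeR).

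Markers of other head cells were read beside the receptors. Of 9 glia markers Gs2 passed in mTET2-R43G and the list summed to 2762 to 3529 CPM in control and 2311 to 2549 CPM in mTET2-R43G, which did not overlap. In mTET2-wt the glia sum was 2468 to 2583 CPM and in mTET2-R1261C 2465 to 3062 CPM. Of 12 photoreceptor markers Rh5, a blue opsin, fell in the mTET2-wt, mTET2-R43G and mTET2-R1261C groups by 0.43, 0.54 and 0.45 (adjusted p 0.0379, 0.0104 and 0.0382, edgeR). With the length trend removed its adjusted p was 0.062, 0.0381 and 0.0584. Of 14 alternatives the call of Rh5 was lost in 7, 3 and 7 (adjusted p up to 0.155, 0.0584 and 0.169), in each group without control replicate 2 among them, and in mTET2-wt without any 1 of its own 3 libraries, in mTET2-R43G without its replicate 2 and in mTET2-R1261C without its replicate 1 or 2. Leaving out control replicate 1 also ended the call in mTET2-wt and mTET2-R1261C. Their sum was 29050 to 37750 CPM in control, 32220 to 33860 with mTET2-wt, 34990 to 40490 with mTET2-R43G and 31990 to 39010 with mTET2-R1261C, so it overlapped control in each group. The part of any cell type in the values of ort, which sits downstream of photoreceptors, was not tested.

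Of the other marker lists, only that of haemocytes held calls by edgeR against control. It held 1, 1 and 2 of 8 in the mTET2-wt, mTET2-R43G and mTET2-R1261C groups, with 3, 4 and 3 at an unadjusted p under 0.05. DESeq2 called 2, 3 and 2. The shares over all genes close this paragraph. Of 8 haemocyte markers Col4a1, a basement membrane collagen, rose in the mTET2-wt, mTET2-R43G and mTET2-R1261C groups by 0.58, 0.53 and 0.63 (adjusted p 0.00601, 0.00841 and 0.00354, edgeR). Its partner vkg rose in mTET2-R1261C by 0.56 (adjusted p = 0.0221, edgeR), and over the mean of the mTET2 groups by 0.43 (adjusted p = 0.0204, edgeR). The median log2 fold change of the 8 markers was 0.0068, -0.61 and -0.02 for these groups, taken in the same order. Library medians of the list ran from -0.71 to -0.21 with mTET2-R43G and from -0.48 to 0.17 in control, which overlapped. The part of haemocytes in the values of Col4a1 and vkg was not tested. The calls of Col4a1 in each group held in all 14 alternatives. That of vkg in mTET2-R1261C was lost in 6 (adjusted p up to 0.101), without control replicate 1 or 2 or mTET2-R1261C replicate 1 or 2 among them. Its call over the mean was lost in 4 of 19 (adjusted p up to 0.0861, edgeR). Against control edgeR called 0 of 11 neuron markers, with 0, 3 and 0 at an unadjusted p under 0.05 in the mTET2-wt, mTET2-R43G and mTET2-R1261C groups, and DESeq2 called 0, 2 and 0. By edgeR 0 of 10 muscle markers were called (1, 1 and 0 unadjusted, 0 by DESeq2), 0 of 10 fat body markers (1, 2 and 2 unadjusted, 1, 0 and 1 by DESeq2) and 0 of 12 midgut digestive enzymes (7, 0 and 1 unadjusted, 1, 0 and 0 by DESeq2). Over all genes edgeR called 2.24%, 4.33% and 1.49% in these groups, and 14.7%, 23.0% and 11.8% had an unadjusted p under 0.05. DESeq2 called 4.64%, 10.4% and 3.33% of all genes it tested.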

How the data were processed

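Paired-end reads were aligned by the authors (HISAT2 2.1.0, fly release dmel_r6.28). Read pairs were then assigned to genes by featureCounts, version 1.6.0 per the file headers and 2.0.1 per the labels. Counting was reverse-stranded over whole genes, introns included. The deposited counts are raw counts, with no normalization. Pairs that fell on 2 genes were not counted. The gene span deposited beside the counts served for levels per kb, and exon lengths came from the Ensembl annotation. No column of another series was present, as 0 columns were set aside.

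The 40 members and the gene lists were chosen by name with earlier results of these data known, and nothing here is independent support for those results. Symbols were matched through the reference table, and 17632 of 17730 identifiers had one. Tests were run with edgeR 4.0.16, DESeq2 1.42.0 and limma 3.58.1 under R 4.3.3. Python 3.11.15 with numpy 2.4.6, pandas 2.3.3 and matplotlib 3.10.9 made the summaries and plots. A gene needed at least 10 read pairs over all libraries, and 12433 did. TMM factors ran from 0.959 to 1.05. One quasi-likelihood fit with a mean per group used all 12 libraries, and p-values were adjusted over all genes tested (Benjamini-Hochberg). The fit was checked on simulated data. CPM are TMM-scaled, and library medians used log2 of CPM + 0.1.

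Members given per library were those with an adjusted p of at most 0.05, the 2 with the smallest p in each comparison, and the member with the highest CPM per kb for each transmitter. Of the other lists, genes that passed were named. Genes outside this rule were chosen after their values were seen.

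Alternatives were DESeq2, RLE size factors, no filter, filterByExpr, a replicate block, no ribosomal RNA genes, only the libraries compared, gene length offsets (a loess on log length per library, span 0.5) and leaving out each library.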

Additional observations from a re-analysis of the deposited data

How the results depend on the processing

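The receptor calls were few and most sat near the threshold. In mTET2-wt the count of called members went from 1 to 0 with the replicate number as a block, and from 1 to 0 when any 1 of its 6 libraries was left out. In mTET2-R43G it was 9 with DESeq2 and 2 with no filter on low counts, where nAChRalpha5 joined nAChRalpha3. In mTET2-R1261C it was 1 with gene length offsets and ranged from 0 to 1 when libraries were left out, the 1 without mTET2-R1261C replicate 2. Over the mean of the 3 mTET2 groups it ranged from 0 to 1, the 0 without control replicate 2 or 3. Between the mutants DESeq2 called 3, where it called 2.1% of all genes it tested. DEGs among the members stayed at 0 in every comparison and alternative. Per kb of merged exons 5 of the 10 highest members were kept.

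The fold change of nAChRalpha3 between mTET2-R43G and mTET2-wt (0.15) became -0.0286 with length offsets, and that between the mutants (-0.24) became 0.0177. Between mTET2-R1261C and mTET2-wt (-0.09) it ranged from -0.147 to 0.011 when libraries were left out, the positive value without mTET2-R1261C replicate 2. The median of the members moved with length offsets from 0.20 to 0.05 in mTET2-R43G against control and from -0.19 to -0.07 between the mutants. Causes were not tested.

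Replicate numbers did not pair the libraries. Same-numbered deviations correlated between -0.21 and 0.20 across groups. Under the block nAChRalpha3 in mTET2-wt had a log2 fold change of 0.39 and an adjusted p of 0.0802 by edgeR.

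With 3 pools per group, SEs of the members' log2 fold changes ran from 0.06 to 0.44. A difference well above its SE could still fail adjustment over all genes. That of nAChRalpha5 in mTET2-R43G did (0.36, SE 0.10, adjusted p = 0.0636, edgeR). Head pools do not resolve cell types.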
